A study of Homo sapiens with 3 samples.

Results

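The comparison described here used RNA sequencing to set HepG2 cells given 20 µM A438079 against HepG2 cells given PBS, both for 48 h. Its members were the genes whose counts per 1000000 (CPM) averaged 10 or more across the 3 libraries of the study: 8196 of the 12270 genes that reached 1 CPM and of 62680 rows in the count table. HepG2 is an established human hepatocellular carcinoma line, and all 3 groups carry the genotype label WT. The study had 3 groups of 1 library each: 20 µM A438079, 20 µM A740003 and PBS, the control. Both compounds are labelled as antagonists of P2X7, and the solvent in which they were given is not stated in the sources used here, so an effect of a solvent and an effect of A438079 cannot be told apart. With 1 library a side there was no test of the treatment, and each value below is a ratio of scaled counts with a 95% interval that covers counting error only.

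P2X7 is a channel in the plasma membrane that opens when extracellular ATP binds and lets calcium and sodium in and potassium out. It is best known from macrophages, where it is upstream of inflammasome activation and of the release of interleukin-1 beta. HepG2 cells keep much of the secretory and metabolic programme of hepatocytes, such as the synthesis of plasma proteins, lipoproteins and sterols, while they divide as a tumour line.

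The A438079 library held 19606723 expected counts and the PBS library 19375462, so that 10 CPM stood for 194 counts in each. P2RX7 (ENSG00000089041; chr12:121132819-121188032, plus strand), which encodes the channel, had 2 counts in each of the 3 libraries and is no member. A difference in its level was not detectable at this depth. The 8 markers of hepatocytes summed to 18356 CPM with A438079 and 18365 CPM with PBS. Of 6 fibroblast markers 5 had no count in any library, PDGFRB being the exception, and 4 of 4 endothelial markers found in the table were at 0. Of 6 leukocyte markers, PTPRC, CD3E and ITGAM were at 0, and the sum of the list, 987 CPM with A438079 against 1072 CPM with PBS, was nearly all LYZ. Mitochondrial genes took 9.39% of counts with A438079 and 10.3% with PBS. Fewer cells of a kind and less RNA per cell cannot be told apart in such bulk libraries.

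Most genes lay close to the PBS level. The median ratio was 1.02, the quartiles were 0.927 and 1.12, and 77.6% of genes were within 1.2-fold of PBS. A gene was called when its ratio was at least 1.5 in either direction and its counting interval excluded 1. By that rule 21 genes (0.256%) were higher and 292 (3.56%) lower with A438079, so 93.3% of the called genes were lower. The level filter averaged all 3 libraries, so a gene under 10 CPM with A438079 could be a member through its level in another library. At 2-fold, 6 were higher and 48 lower. By the interval alone, 2552 genes (31.1%) lay above 1 and 1739 (21.2%) below 1, which shows how narrow these intervals are: the median gene had 862 counts in the PBS library. The called lower genes were less deeply counted, with a median of 496.5. At the edge of the level filter, FANCB, a Fanconi anaemia complex gene just inside it at 10.0 CPM, stood at 1.18 times PBS (0.952 to 1.46), and SHB, an adaptor protein gene just outside it, at 0.529 times PBS (0.431 to 0.648).

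**Figure D1:**
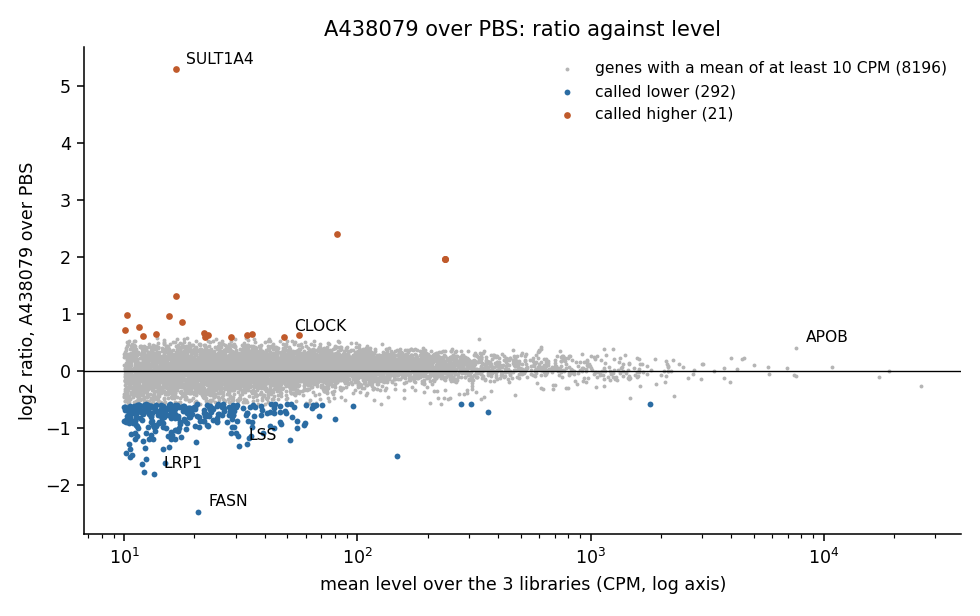
Each point is a gene with a mean of at least 10 CPM (8196 genes), with its mean level on a log axis in CPM and its log2 ratio of A438079 over PBS. The 292 genes called lower (blue) lie at lower levels than most, the 21 called higher (orange) are few, and SULT1A4 at the top shares its reads with a near-identical copy.

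Of the 21 higher genes, 8 had unshared reads, that is, expected counts that lay within 0.005 of whole numbers in each library. MYO9A (ENSG00000066933; chr15:71822289-72118577, minus strand), an unconventional myosin of class IX, had 404 counts with A438079 and 222 with PBS. Its ratio was 1.82 (1.54 to 2.16). That value depended on the table: in the authors' FPKM values, which are scaled by a length that can differ between libraries, its log2 ratio was -0.0173 with a pseudocount of 1, against 0.87 from the counts. ZNF180, a zinc finger protein gene, had 222 against 135 counts and a ratio of 1.65 (1.32 to 2.06). ROMO1 (ENSG00000125995; chr20:35699272-35700984, plus strand), which encodes a small protein of the mitochondrial inner membrane, had 1199 counts with A438079 and 776 with PBS, a ratio of 1.55 (1.41 to 1.70). CLOCK (ENSG00000134852; chr4:55427903-55547138, minus strand), a transcription factor of the circadian oscillator, had 1055 counts with A438079 and 702 with PBS, or 1.51 times PBS (1.37 to 1.66).

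UTP25, which takes part in making the small ribosomal subunit, had 629 against 419 counts and stood at 1.504 times PBS (1.33 to 1.71). CEP152, a centrosomal protein needed for centriole duplication, had 480 against 320 counts and stood at 1.503 times PBS (1.30 to 1.74). MTURN had 273 against 178 counts and stood at 1.54 times PBS (1.27 to 1.87). The eighth gene with whole counts was a row on the Y chromosome annotated as a pseudogene, described below with the ribosomal RNA rows. Of these, UTP25, CEP152 and CLOCK sit at the very edge of the 1.5-fold rule.

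Below 1.5-fold, 9 further protein-coding genes with unshared reads made up the 15 highest by the bound nearest to 1. They include CLASP1, which stabilises microtubule ends, at 1.42 times PBS (1.32 to 1.53), and UBR3, a ubiquitin ligase, at 1.43 times PBS (1.32 to 1.55). VPS13D, a lipid transfer protein gene, stood at 1.46 times PBS (1.31 to 1.64). OGA, the enzyme that removes O-linked N-acetylglucosamine from proteins, had 1912 counts with A438079 and 1370 with PBS and a ratio of 1.40 (1.30 to 1.4998). ABLIM1, an actin-binding LIM protein gene and the most deeply counted of them, had 12565 counts with A438079 and 9398 with PBS and a ratio of 1.34 (1.30 to 1.38). PTAR1, SLC35A5, RC3H2 and ZNF507 lay between 1.40 and 1.49 times PBS. In the A740003 library, which was compared with the same PBS library, MYO9A, ROMO1, CLOCK and OGA stood at 1.81, 1.67, 1.51 and 1.58 times PBS.

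The other 13 called higher rows had fractional counts, which arise when reads are assigned in part to several rows, and 3 of them lie inside ribosomal RNA genes. SULT1A4 had 920 against 23 counts, but SULT1A4 and its near-identical copy SULT1A3 together had 3253 against 3299, a ratio of 0.988 (0.941 to 1.04). RPL36A-HNRNPH2, a readthrough row at 2.49 times PBS, and RPL36A together stood at 1.05 (1.01 to 1.10). GSTA2 and GSTA1, glutathione transferase genes of hepatocytes, together had 1040 counts with A438079 and 739 with PBS, a ratio of 1.41 (1.28 to 1.55), with 608 counts in the A740003 library. RPS28 and its pseudogene RPS28P7 together had 2220 against 1517 counts, a ratio of 1.47 (1.37 to 1.57). Of these 4 summed loci, the glutathione transferases and RPS28 lay well above PBS when summed and the other two near it. ERO1B, which oxidises disulfide isomerases in the endoplasmic reticulum, had 279 against 163 counts and a ratio of 1.71 (1.41 to 2.09). WDFY3, an autophagy adaptor gene, had 750 against 488 counts and a ratio of 1.54 (1.37 to 1.73).

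Rows inside genes of 18S ribosomal RNA had more counts with A438079. The table has no row named 18S, but 5 rows lie inside annotated 18S genes or pseudogenes on chromosomes 21 and Y. All 5 rows are annotated on the minus strand, and the strand of the 18S genes was not compared with theirs. Of these, 3 hold identical values, 8482 counts with A438079 and 2173 with PBS, so that these copies cannot be told apart. The row on the Y chromosome (ENSG00000225840; chrY:10197256-10199103, minus strand), inside RNA18SP2, had 3069 against 581 counts. The sum of the 5 rows was 28678 in the A438079 library, against 7131 with PBS and 10946 with A740003. The A438079 library thus stood apart from both others, at 4.03 times PBS (3.93 to 4.14), where the A740003 library stood at 1.497 times the same PBS library. These rows took 0.146% of counts with A438079 (exact binomial 95% interval 0.145% to 0.148%) and 0.0368% with PBS (0.0360% to 0.0377%). The libraries were made with a kit for mRNA, and how much ribosomal RNA each kept was not tested.

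Among the 15 lowest genes with unshared reads, FASN, the fatty acid synthase, was the lowest, with 165 counts with A438079 and 928 with PBS, a ratio of 0.178 (0.150 to 0.210). STK11 (ENSG00000118046; chr19:1177558-1228435, plus strand), the kinase LKB1 that activates AMPK, had 128 counts with A438079 and 352 with PBS. Its ratio was 0.364 (0.295 to 0.447). POLR2A (ENSG00000181222; chr17:7484366-7514616, plus strand), the largest subunit of RNA polymerase II, had 149 counts with A438079 and 441 with PBS, a ratio of 0.339 (0.279 to 0.408). MMP15, a matrix metalloproteinase of the cell surface, had 142 against 406 counts and a ratio of 0.350 (0.287 to 0.425). ANKRD52, a regulatory subunit of protein phosphatase 6, had 141 against 393 counts and a ratio of 0.359 (0.294 to 0.437).

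NUP210 (ENSG00000132182; chr3:13316235-13420309, minus strand), a membrane glycoprotein of the nuclear pore, had 197 counts with A438079 and 515 with PBS, or 0.383 times PBS (0.324 to 0.452). VARS1, the cytosolic valyl-tRNA synthetase, had 468 against 1151 counts and stood at 0.407 times PBS (0.365 to 0.454). PTPRU, a receptor-type tyrosine phosphatase, had 222 against 563 counts and stood at 0.395 times PBS (0.337 to 0.462). FLNA, the actin cross-linker filamin A and the most deeply counted of the group, had 777 against 1812 counts and stood at 0.430 times PBS (0.394 to 0.468). LRP1, PRRC2A, TTYH3, LSS and MVD, also among the 15, stood at 0.285, 0.292, 0.318, 0.401 and 0.420 times PBS. FASN, STK11, POLR2A, MMP15, ANKRD52, LRP1, PRRC2A and TTYH3 were under 10 CPM both with A438079 and with A740003. These genes passed the level filter only through the PBS library, where they were high. Against that same PBS library, the A740003 library had NUP210, VARS1, PTPRU and FLNA at 0.277, 0.288, 0.218 and 0.230 times PBS, and MVD at 0.730 and LSS at 0.592.

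**Figure D2:**
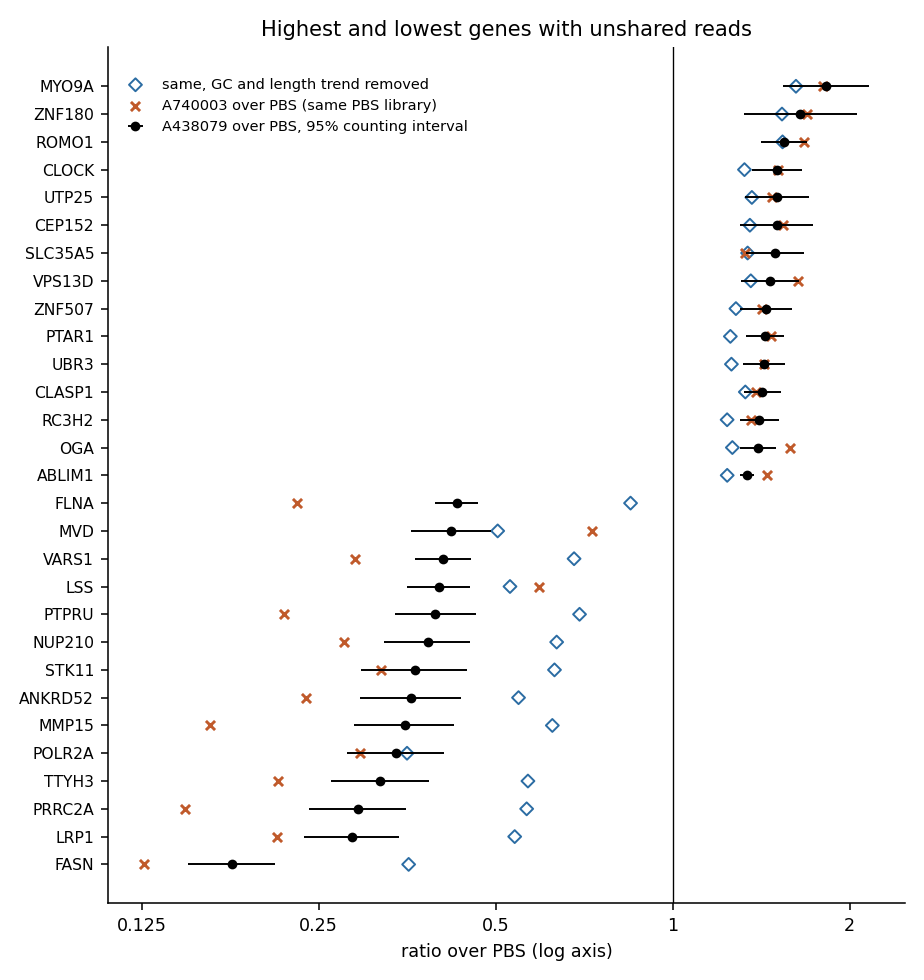
Ratios over PBS on a log axis for the 15 highest protein-coding genes with unshared reads and 14 of the 15 lowest. Black points with bars are A438079 over PBS with the 95% counting interval, open blue diamonds the same ratio after removal of the trend with GC content and length described next, and orange crosses A740003 over the same PBS library. The lower genes run from FASN at 0.178 to FLNA at 0.430, and the diamonds of these lie nearer to 1 than the points.

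The lower genes shared a base composition that the rule did not use. Their median transcript GC content was 58.7%, against 46.2% over all genes, and their median transcript length 4406 nt, against 3492 nt. The 21 higher genes had medians of 46.0% and 3479.5 nt. The 8124 genes with both values were divided into 5 groups of nearly equal size by GC content. From the lowest to the highest GC content, these groups held 0, 7, 12, 56 and 213 lower genes, the last being 13.1% of its 1625 genes. The median log2 ratio went the same way, from 0.14 in the group of lowest GC content to -0.15 in the highest. By length, the median went from -0.02 in the shortest group to 0.13 in the longest, while lower genes numbered 13 in the shortest and 83 in the longest. By chromosome, the share of lower genes ran from 0 of 156 genes on chromosome 13, whose genes had a median GC content of 41.6%, to 8.13% of 369 genes on chromosome 19, with 57.8%. Whether GC content or length played a part in preparing or counting these libraries was not tested.

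**Figure D3:**
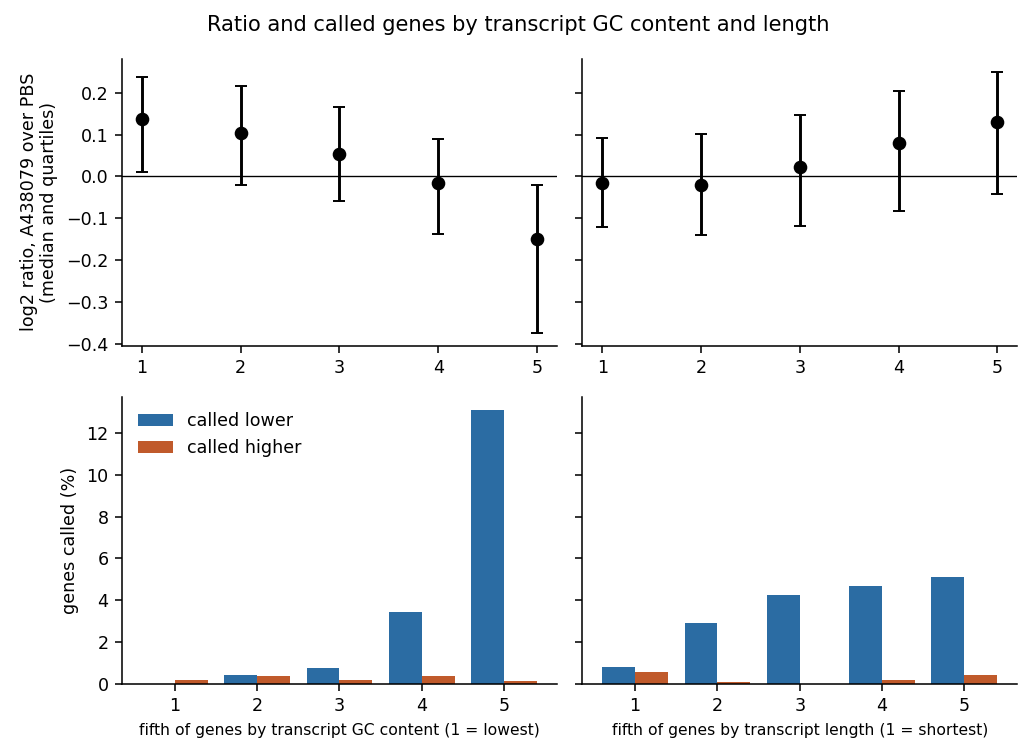
Genes in 5 groups by transcript GC content (left) and length (right). The upper panels give the median log2 ratio of A438079 over PBS with quartiles over genes, the lower panels the percentage of genes called lower (blue) or higher (orange). Lower genes make up 13.1% of the group of highest GC content, and there are none in the lowest.

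This composition trend was removed by subtracting a median log2 ratio from that of each gene. The median was taken over the gene itself and the 200 genes closest to it in rank of GC content and length. Those neighbours were drawn from the genes that averaged 1 CPM or more, so they include genes below the 10 CPM filter. How far the values depend on that choice of neighbours was not tested. With the composition trend removed, 103 genes were lower and 28 higher. Of the 292 genes called lower without that step 92 were also lower with it, and of the 21 called higher 14 were. A ratio of 1.5 is 0.58 on the log2 scale. FASN stood at a log2 ratio of -1.49 after the step, against -2.49 before. FZD5 (ENSG00000163251; chr2:207762586-207769563, minus strand), a Wnt receptor with a transcript GC content of 49.9%, hardly moved: it had 236 counts with A438079 and 520 with PBS, and its log2 ratio was -1.14 before and -1.17 after. UBN1, a subunit of the histone chaperone complex that deposits histone H3.3, had 222 against 440 counts, and its log2 ratio was -0.98 before and -0.96 after. NOL6, a nucleolar protein of ribosome assembly, had 160 against 368 counts and went from -1.20 to -0.85. Among the lowest genes, FLNA went from -1.22 to -0.24, VARS1 from -1.29 to -0.56 and PTPRU from -1.34 to -0.53, all short of the call after the step, and the other 11 named above stayed called. POLR2A stayed at -1.50, but the transcript length used for it, 2083 nt, was that of the longest transcript annotated as coding and may not be the one counted.

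At the upper end MYO9A, ZNF180 and ROMO1 stayed called, at 0.70, 0.62 and 0.62 on the log2 scale. CLOCK, UTP25, CEP152, MTURN and WDFY3 did not, at 0.41, 0.45, 0.44, 0.54 and 0.48. Other genes came forward. RBM15, which guides the RNA methylation complex to its targets, had 319 counts with A438079 and 225 with PBS, with a log2 ratio of 0.51 before and 0.63 after. MICAL2, an enzyme that oxidises actin, had 319 against 240 counts and went from 0.41 to 0.59. MYH9, the heavy chain of nonmuscle myosin IIA, changed sides: it had 3659 against 4250 counts, below PBS at -0.21, and 0.55 after the step. COX8A, a small subunit of cytochrome c oxidase, had 499 counts with A438079 and 348 with PBS, a ratio of 1.44 (1.2503 to 1.65), and stood at 0.51 after the step, near its value before it.

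The same contrast in base composition was present upstream of the genes. RefSeq gives a start site on GRCh38.p14 for 6712 of the 8196 genes, and the 250 bases before it had a median GC content of 64.8% over all of them, 70.8% for the 225 lower genes found and 60.0% for the 14 higher genes found. The GC box GGGCGG, read on both strands, was in 68.3% of all these windows and in 79.1% of those of lower genes. CCAAT was in 36.5% and 35.1%, and the E-box CACGTG in 9.45% and 8.89%. The sterol element TCACNCCAC was in 56 windows (0.834%), 4 of them upstream of lower genes (1.78%). The GC box and runs of G and C overlap, so its share moves with GC content, and a match is a run of letters, not evidence of binding. Windows are shown for 3 lower genes, SREBF2, LSS and NUP210, and for CLOCK, a transcription factor among the higher genes, because they show what these shares stand for. They lie at chr22:41832855-41833104 (plus strand), chr21:46228775-46229024 (minus), chr3:13420323-13420572 (minus) and chr4:55546910-55547159 (minus). Capitals mark the sterol element in SREBF2, which encodes a transcription factor of sterol synthesis, and GC boxes on either strand in the other genes.
SREBF2: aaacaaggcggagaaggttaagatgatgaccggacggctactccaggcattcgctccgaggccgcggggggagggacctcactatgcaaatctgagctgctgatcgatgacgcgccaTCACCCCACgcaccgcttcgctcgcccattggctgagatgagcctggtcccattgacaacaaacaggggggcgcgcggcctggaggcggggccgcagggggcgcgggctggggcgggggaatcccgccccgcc
LSS: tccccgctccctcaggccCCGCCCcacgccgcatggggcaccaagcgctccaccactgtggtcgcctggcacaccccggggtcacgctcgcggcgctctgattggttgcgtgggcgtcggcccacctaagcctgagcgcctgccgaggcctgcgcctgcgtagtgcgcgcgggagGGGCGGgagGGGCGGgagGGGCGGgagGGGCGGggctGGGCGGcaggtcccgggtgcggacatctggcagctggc
NUP210: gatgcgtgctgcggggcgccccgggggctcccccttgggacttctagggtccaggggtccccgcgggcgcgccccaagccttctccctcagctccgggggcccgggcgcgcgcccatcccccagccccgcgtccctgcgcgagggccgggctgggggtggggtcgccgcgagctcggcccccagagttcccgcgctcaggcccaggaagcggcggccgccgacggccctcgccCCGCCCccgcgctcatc
CLOCK: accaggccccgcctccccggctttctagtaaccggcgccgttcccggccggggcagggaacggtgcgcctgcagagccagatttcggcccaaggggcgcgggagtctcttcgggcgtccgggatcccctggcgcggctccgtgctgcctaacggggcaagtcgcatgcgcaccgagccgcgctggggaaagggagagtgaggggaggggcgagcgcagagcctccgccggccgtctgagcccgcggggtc
The SREBF2 window holds 1 sterol element, starting 133 bases before the start site, and that gene had 436 counts with A438079 and 930 with PBS. Its ratio was 0.470 (0.418 to 0.527), and it stood at -0.61 on the log2 scale with the composition trend removed. The LSS window holds 6 GC boxes and the NUP210 window 1, at GC contents of 76.8% and 80.8%. The CLOCK window holds none at 73.6%.

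Of 58 gene lists chosen to cover cell structure, gene expression, liver function and signalling, 57 had at least 6 measured members. Their median log2 ratios were mostly small: 47 of the 57 lay within 0.1 of 0, and 54 did so with the composition trend removed. A called lower member was present in 26 lists and a called higher member in 3, and 30 had no called member. With the composition trend removed, 9 lists had a called lower member and 3 a called higher one. The median log2 ratios ran from -0.61 to 0.21. The median log2 ratio over all 8196 genes was 0.03. Over all genes, 3.56% were called lower and 0.256% higher, the background for the counts in each list below. An interval above 1 was found for 31.1% of all genes and below 1 for 21.2%, and 56.1% lay above PBS.

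**Figure D4:**
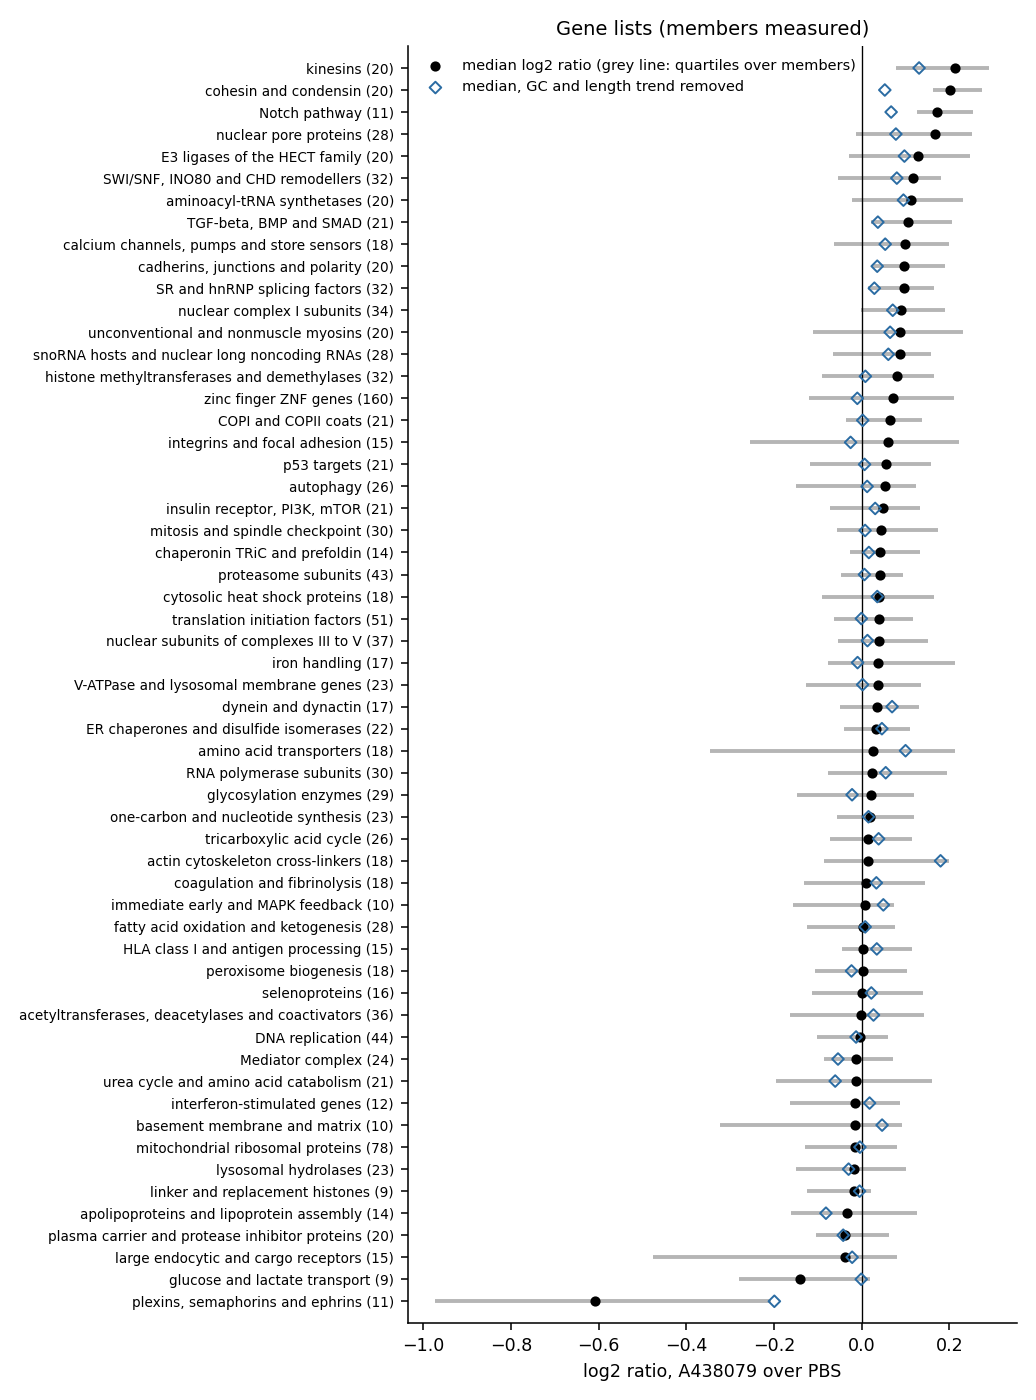
Median log2 ratio of A438079 over PBS for 57 gene lists, with the number of measured members in parentheses, quartiles over members as grey lines and medians with the composition trend removed as open diamonds. Most medians lie within 0.1 of 0; plexins, semaphorins and ephrins stand lowest at -0.61, and at -0.20 with that trend removed.

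Genes of axon guidance cues and their receptors stood lowest. Of 11 measured plexins, semaphorins, ephrins and their receptors, 10 lay below PBS, 8 with an interval below 1, and 6 were called lower, against 3.56% of all genes. EPHB4, a receptor for ephrin-B ligands, had 171 counts with A438079 and 381 with PBS, a ratio of 0.450 (0.373 to 0.540). SEMA6B, a membrane-bound semaphorin, had 300 against 614 counts and a ratio of 0.490 (0.425 to 0.563). PLXNB2 and PLXNB1, semaphorin receptors, had 553 against 1094 counts and 257 against 428 counts, ratios of 0.506 and 0.602. EPHA2, an ephrin-A receptor, had 342 against 669 counts and a ratio of 0.512 (0.448 to 0.584). The exception was SEMA6A, with 761 against 723 counts and a ratio of 1.05 (0.951 to 1.17). The median GC content of these 11 genes was 60.3%, and with the composition trend removed none of the 11 was called and the median log2 ratio of the list was -0.20, with SEMA6B at -0.20, PLXNB2 at -0.05 and PLXNB1 at 0.22. EPHA2 and EPHB4 stood at -0.47 and -0.41.

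Receptor tyrosine kinases, a list taken from the authors' annotation after values had been seen, included both of these ephrin receptors. Of 12 measured genes 9 lay below PBS and 5 were called lower, against 3.56% of all genes. FGFR4, the receptor through which the gut hormone FGF19 acts on hepatocytes, had 422 counts with A438079 and 939 with PBS, a ratio of 0.450 (0.400 to 0.506). TYRO3, a receptor of the TAM family, had 278 against 502 counts and a ratio of 0.555 (0.477 to 0.644). IGF1R, the receptor for insulin-like growth factors, had 234 against 404 counts and a ratio of 0.580 (0.492 to 0.683), whereas INSR, the insulin receptor, had 607 against 565 counts and a ratio of 1.08 (0.958 to 1.21). MET, the receptor for hepatocyte growth factor, was the highest at 1.17 times PBS (1.11 to 1.23), with 2961 against 2539 counts. With the trend removed, FGFR4, TYRO3 and IGF1R stood at -0.56, -0.64 and -0.65 on the log2 scale, and the list median at -0.07. On that scale TYRO3 and IGF1R were the 2 still called.

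Endocytic receptors were divided. Of 15 measured, 4 were called lower, against 3.56% of all genes, and none higher, against 0.256%, and the median log2 ratio was -0.04. SCARB1, the receptor for high-density lipoprotein on hepatocytes, had 636 counts with A438079 and 1248 with PBS, a ratio of 0.511 (0.463 to 0.562), and stood at -0.82 on the log2 scale with the trend removed. LRP5, a Wnt co-receptor, had 165 against 360 counts and a ratio of 0.459 (0.380 to 0.554), and its paralog LRP6 had 1757 against 1356 counts and a ratio of 1.30 (1.21 to 1.39). LRP4, another receptor of the same family, had 176 against 313 counts and a ratio of 0.563 (0.466 to 0.680). LRP5 and LRP4 were not called with the trend removed, at -0.33 and -0.37 on the log2 scale. TFRC, the transferrin receptor, had 7361 counts with A438079 and 5013 with PBS, a ratio of 1.47 (1.42 to 1.53). ASGR1 and ASGR2, the asialoglycoprotein receptor of hepatocytes, stood at 0.973 and 0.919, and IGF2R, the cation-independent mannose 6-phosphate receptor, at 1.004 times PBS (0.965 to 1.04). Among proteins with LDL receptor class A repeats, a list taken from the authors' annotation, 5 of 13 were called lower, against 3.56% of all genes. LRP1, LRP4, LRP5 and LRP11 were among the 5. With the trend removed 3 of the 5 were also called, LRP1 and LRP11 among them, but not LRP4 or LRP5. LRP11 had 414 against 777 counts, a ratio of 0.534 (0.473 to 0.602), and stood at -0.91 on the log2 scale with the trend removed.

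**Figure D5:**
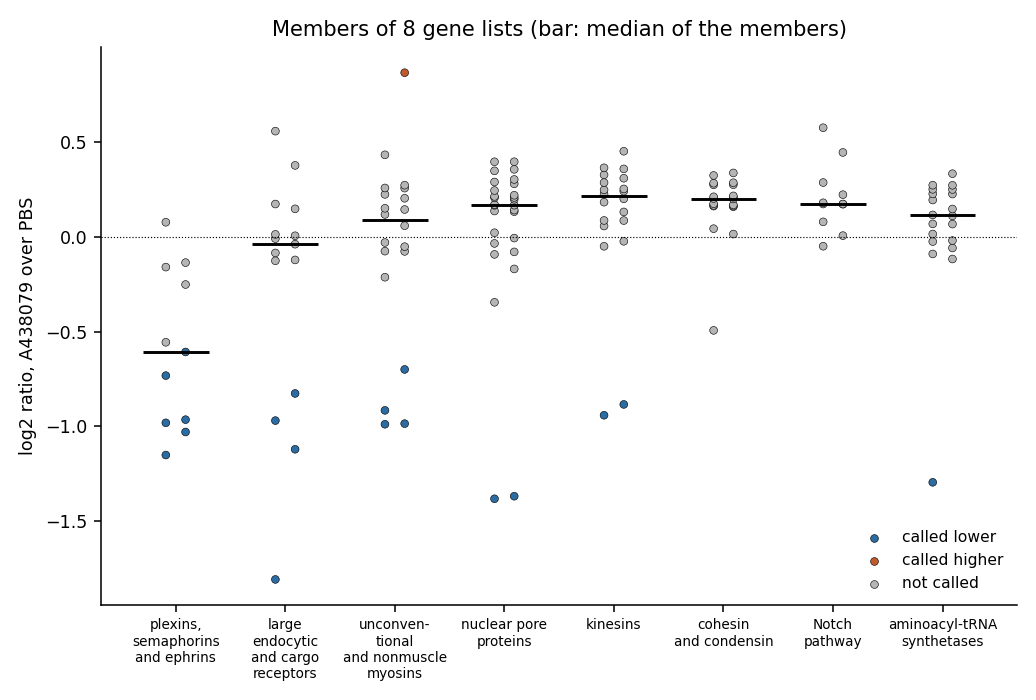
Log2 ratios of A438079 over PBS for the measured members of 8 gene lists, 1 point a gene, with the median as a bar. Blue points are called lower, orange points called higher and grey points not called; in the lists of nuclear pore proteins, kinesins and aminoacyl-tRNA synthetases most members lie above 0 and 1 or 2 stand far below.

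Kinesins lay mostly above PBS, with a few members far below. Of 20 kinesins, 16 lay above PBS, 13 with an interval above 1, against 56.1% and 31.1% of all genes. Their median log2 ratio was 0.21, or 0.13 with the trend removed. KIF14, which acts in cytokinesis, was the highest at 1.37 times PBS (1.23 to 1.52), and KIF5B, the conventional kinesin heavy chain, had 13030 against 11363 counts and stood at 1.15 times PBS (1.12 to 1.18). KIF1C, a transporter of vesicles, had 765 counts with A438079 and 1472 with PBS, a ratio of 0.521 (0.477 to 0.569), and KIF18B, a mitotic kinesin, had 155 against 287 counts and a ratio of 0.541 (0.442 to 0.660). Both were called lower, but not with the trend removed, at -0.54 and -0.56 on the log2 scale. Of 20 myosin genes 11 lay above PBS, against 56.1% of all genes. Among them 1 was called higher, MYO9A, and 4 lower, against 0.256% and 3.56% of all genes. None of the 4 was called with the trend removed. MYO1C, a membrane-linked class I myosin, had 450 against 893 counts and a ratio of 0.505 (0.450 to 0.566), or -0.47 on the log2 scale with the trend removed. MYH14 and MYO9B had 205 against 408 counts and 167 against 316 counts, ratios of 0.503 and 0.529, but stood at -0.04 and 0.02 on the log2 scale with the trend removed. MYO9A and MYO9B, the 2 class IX myosins, thus lay on opposite sides of PBS in the counts.

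Actin cross-linkers also lay on both sides. Of 18 measured, 11 lay above PBS, 7 with an interval above 1, against 56.1% and 31.1% of all genes. FLNA and TLN1 were called lower, against 3.56% of all genes, but neither of them with the trend removed. TLN1, the talin that ties integrins to actin, had 859 counts with A438079 and 1506 with PBS, a ratio of 0.571 (0.525 to 0.622), and -0.11 on the log2 scale with the trend removed. DST and UTRN, very large linker proteins, stood at 1.34 and 1.30 times PBS. The median log2 ratio of the list was 0.01, and 0.18 with the trend removed, the highest of the 57 lists on that scale. Among integrin and focal adhesion genes, SRC, a tyrosine kinase of adhesion sites, had 255 against 527 counts and a ratio of 0.485 (0.416 to 0.564), the only 1 of 15 called lower, and -0.54 on the log2 scale with the trend removed, short of the call. ITGB1, the common beta subunit, had 20413 against 17301 counts and a ratio of 1.18 (1.16 to 1.21), and ITGA2 stood at 1.34 times PBS (1.247 to 1.45). Among 20 junction and polarity genes, DLG5, a scaffold protein gene, had 222 against 493 counts and a ratio of 0.451 (0.383 to 0.530), and LLGL2, a polarity protein gene, stood at 0.650 times PBS (0.531 to 0.793). Both were called lower, against 3.56% of all genes, while 15 of the 20 lay above PBS, against 56.1%. With the trend removed DLG5 was still called, at -0.59 on the log2 scale, and LLGL2 lay above PBS at 0.14.

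Nuclear pore proteins were divided in the same manner. Of 28 measured, 20 lay above PBS and 19 had an interval above 1, against 31.1% of all genes. NUP205 and NUP50, of the inner ring and the nuclear basket side, had 4014 against 3057 counts and 2899 against 2208 counts, ratios of 1.32 (1.255 to 1.38) and 1.32 (1.24 to 1.39). TPR, the basket filament protein, had 5232 counts with A438079 and 4097 with PBS, a ratio of 1.28 (1.23 to 1.33). The 2 members called lower, against 3.56% of all genes, were NUP210 and POM121, both membrane-spanning proteins of the pore. POM121 had 142 counts with A438079 and 368 with PBS, a ratio of 0.387 (0.316 to 0.470), with fractional counts, so that reads may be shared with its close paralog. On the log2 scale with the trend removed, NUP210 and POM121 stood at -0.66 and -0.71, and the list median at 0.08.

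Cohesin and condensin, the ring complexes that hold and fold chromosomes, lay above PBS nearly throughout. Of 20 genes 19 did so, 17 of them with an interval above 1, against 31.1% of all genes, none reached 1.5-fold, and the median log2 ratio was 0.20. SMC3, a core subunit of cohesin, had 5228 counts with A438079 and 4299 with PBS, a ratio of 1.22 (1.17 to 1.27). STAG1 and PDS5B, which bind the cohesin ring, stood at 1.251 and 1.26. NCAPH2, a condensin II subunit, was the exception, with 847 against 1195 counts and a ratio of 0.710 (0.650 to 0.776). The median GC content of these genes was 40.5%, the list median was 0.05 on the log2 scale with the trend removed, and SMC3 stood at 0.16.

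Chromatin factors were on both sides. Among 36 acetyltransferases, deacetylases and coactivators 3 were called lower, against 3.56% of all genes, and the median log2 ratio was 0.00. EP300, a histone acetyltransferase, had 200 against 332 counts and a ratio of 0.604 (0.504 to 0.721), and HDAC5, a deacetylase, had 167 against 260 counts and a ratio of 0.644 (0.527 to 0.785). NCOR1, a corepressor, was the highest with 2655 against 1928 counts and a ratio of 1.38 (1.30 to 1.46). EP300 stood at -0.58 on the log2 scale with the trend removed, and HDAC5 at 0.10, so neither was called on that scale.

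EHMT2 and KDM5C, a methyltransferase and a demethylase for histone H3, had 345 against 641 counts and 378 against 605 counts, ratios of 0.539 (0.472 to 0.616) and 0.626 (0.549 to 0.713), the 2 called lower of 32 such enzymes. The share called lower over all genes was 3.56%. Neither EHMT2 nor KDM5C was called with the trend removed, at -0.28 and -0.41 on the log2 scale. KDM5A, a paralog of KDM5C, had 1275 counts with A438079 and 905 with PBS, a ratio of 1.41 (1.30 to 1.54). Of 32 remodeller subunits 15 had an interval above 1 and 5 below 1, against 31.1% and 21.2% of all genes, with none called. Among 24 Mediator subunits none was called, MED1 standing highest at 1.29 times PBS (1.23 to 1.36) and MED24 lowest at 0.699 times PBS (0.626 to 0.780). POLR2A was the only 1 of 30 RNA polymerase subunits called. Its partner POLR2H, a subunit common to the nuclear polymerases, had 1043 against 1147 counts and a ratio of 0.911 (0.837 to 0.992), and POLR2L, another such subunit, had 460 against 359 counts and a ratio of 1.28 (1.12 to 1.48). Of 160 measured ZNF genes 97 lay above PBS, against 56.1% of all genes. Among them 1 was called higher and 3 lower, against 0.256% and 3.56% of all genes. ZNF512B was the lowest, with 166 against 426 counts and a ratio of 0.390 (0.324 to 0.468), but was not called with the trend removed, at -0.47 on the log2 scale. Of the 3 called lower, 1 was still called with the trend removed. This was ZNF516, with a ratio of 0.516 (0.426 to 0.624) and -0.64 on that scale.

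Genes of translation and RNA processing lay mostly near PBS. Of 20 genes of cytosolic aminoacyl-tRNA synthetases and their scaffold proteins 14 lay above PBS, against 56.1% of all genes. VARS1 alone was called lower, against 3.56% of all genes, though not with the trend removed. VARS2, the mitochondrial valyl-tRNA synthetase and no member of that list, was called lower as well, with 641 against 990 counts and a ratio of 0.649 (0.586 to 0.717), or -0.11 on the log2 scale with the trend removed. CARS1, EPRS1 and NARS1, for cysteine, glutamate with proline, and asparagine, stood at 1.26, 1.21 and 1.21 times PBS, and EPRS1 had 6454 against 5357 counts. None of 51 translation initiation factors and none of 78 mitochondrial ribosomal proteins was called, with median log2 ratios of 0.04 and -0.02. EIF5B, which joins the ribosomal subunits, had 12579 against 9867 counts and a ratio of 1.28 (1.24 to 1.31), and EIF3F, a subunit of the initiation factor that binds the small ribosomal subunit, had 839 against 1104 counts and a ratio of 0.761 (0.695 to 0.834). MRPS6, a protein of the small mitochondrial subunit, had 278 against 366 counts and a ratio of 0.761 (0.649 to 0.892). Of 32 SR and hnRNP splicing factors 26 lay above PBS, 18 with an interval above 1, against 56.1% and 31.1% of all genes. Their median log2 ratio was 0.10, or 0.03 with the trend removed. HNRNPH1 was the highest of them with 12836 counts with A438079 and 9871 with PBS, a ratio of 1.30 (1.27 to 1.34), and HNRNPM the lowest at 0.892 times PBS (0.861 to 0.925).

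Protein folding and turnover showed few calls. Cytosolic heat shock genes had a median log2 ratio of 0.04 over 18 genes, with HSF1, the heat shock transcription factor, and BAG3, a co-chaperone, called lower at 0.644 times PBS (0.538 to 0.770) and 0.652 times PBS (0.571 to 0.743). Over all genes the share called lower was 3.56%. Neither HSF1 nor BAG3 was called with the trend removed, at -0.29 and -0.51 on the log2 scale. HSP90AA1, the inducible HSP90 gene, had 82547 against 70747 counts and a ratio of 1.17 (1.16 to 1.18). Of 22 chaperones and disulfide isomerases of the endoplasmic reticulum only ERO1B was called. SEL1L, an adaptor of degradation from that compartment, had 4412 against 3548 counts and a ratio of 1.246 (1.19 to 1.30). None of 43 proteasome genes was called, and PSMD1, at 1.19 times PBS (1.15 to 1.23), was the highest. Of 20 HECT ubiquitin ligases 12 had an interval above 1 and 2 below 1, against 31.1% and 21.2% of all genes. Their median log2 ratio was 0.13, or 0.10 with the trend removed, and HERC1 was the highest at 1.39 times PBS (1.251 to 1.54). ATG9A, the lipid scramblase of autophagosome formation, had 363 against 588 counts and a ratio of 0.619 (0.541 to 0.706), the 1 called of 26 genes in the autophagy list, which does not hold WDFY3. It was not called with the trend removed, at -0.23 on the log2 scale.

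Hepatocyte functions were little different from PBS in the lists of secreted proteins. Of 20 plasma carriers and protease inhibitors 8 had an interval above 1 and 8 had one below 1, against 31.1% and 21.2% of all genes, and none was called. SERPINA3, an acute phase protease inhibitor, had 3325 counts with A438079 and 4939 with PBS, a ratio of 0.674 (0.645 to 0.705), and RBP4, the retinol carrier of plasma, had 4618 against 3987 counts and a ratio of 1.16 (1.11 to 1.21). Coagulation genes had a median log2 ratio of 0.01 over 18 genes with none called. CPB2, which slows fibrinolysis, had 1934 against 2602 counts and a ratio of 0.745 (0.702 to 0.790), and VKORC1, the vitamin K recycling enzyme, had 844 against 666 counts and a ratio of 1.27 (1.15 to 1.41). FGA, the fibrinogen alpha chain, had 33242 against 28458 counts and a ratio of 1.17 (1.15 to 1.19).

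Of 14 apolipoprotein and lipoprotein assembly genes APOA5, which promotes triglyceride clearance, was the only one called, with 343 counts with A438079 and 516 with PBS, a ratio of 0.666 (0.579 to 0.765), though not with the trend removed, at -0.45 on the log2 scale. APOB, the structural protein of very-low-density lipoprotein and one of the 10 most abundant transcripts, had 158105 counts with A438079 and 119636 with PBS, a ratio of 1.32 (1.31 to 1.33), and stood at 0.27 on the log2 scale with the trend removed. The other nine most abundant were MT-RNR2, EEF1A1, MT-CO1, MT-CO2, MT-CO3, MT-ND2, MT-ND4, ALB and HSP90AB1. Of these MT-RNR2, the mitochondrial 16S ribosomal RNA, lay farthest from PBS, with 484419 against 585870 counts and a ratio of 0.828 (0.825 to 0.832). ALB, albumin, had 120012 against 125391 counts and a ratio of 0.959 (0.951 to 0.967). The remaining 7 lay between 0.925 and 1.05 times PBS.

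Metabolic lists of the mitochondrion and peroxisome held few called genes. Of 28 fatty acid oxidation and ketogenesis genes 7 had an interval above 1 and 7 had one below 1, against 31.1% and 21.2% of all genes. None was called. ACOT2, a mitochondrial thioesterase, had 199 against 287 counts and a ratio of 0.695 (0.577 to 0.835). CPT1A, the carnitine transferase that controls entry of fatty acids, had 494 against 582 counts and a ratio of 0.850 (0.753 to 0.960). Among 26 genes of the tricarboxylic acid cycle and its side reactions, PC, pyruvate carboxylase, was called lower at 0.659 times PBS (0.566 to 0.766), but stood at 0.03 on the log2 scale with the trend removed. ACLY, which makes cytosolic acetyl-CoA from citrate, had 4985 against 6307 counts and a ratio of 0.792 (0.763 to 0.822). Among urea cycle and amino acid genes GPT2 and HPD had 1338 against 1949 counts and 2056 against 2926 counts, ratios of 0.688 and 0.704, with none of 21 called.

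Of 34 nuclear subunits of complex I 25 lay above PBS, against 56.1% of all genes, and none was called. Their median log2 ratio was 0.09, or 0.07 with the trend removed. NDUFA2 had 819 against 635 counts and a ratio of 1.29 (1.16 to 1.44). Among 37 subunits of complexes III to V, COX8A was the highest and CYC1, the cytochrome of complex III, the lowest at 0.7999 times PBS (0.728 to 0.879). Steroid biosynthesis, a list from the authors' annotation that overlaps the sterol pathway, was added after values had been seen. It had 15 of 17 genes below PBS, 12 with an interval below 1, against 21.2% of all genes. LSS was the lowest of 3 genes called lower, against 3.56% of all genes, and all 3 were also called with the trend removed. The median log2 ratio was -0.36, or -0.37 with the trend removed. HSD17B7, which acts late in cholesterol synthesis, had 485 against 710 counts and a ratio of 0.684 (0.608 to 0.769). LBR, the nuclear envelope protein that doubles as a sterol reductase, was the highest with 5822 against 5029 counts and a ratio of 1.16 (1.12 to 1.205). In the A740003 library, compared with the same PBS library, the median log2 ratio of these 17 genes was -0.04. Proteins with LDL receptor class A repeats stood at -0.07 there, against -0.32 with A438079. Other lists went the same way in both libraries. With A740003 plexins, semaphorins and ephrins stood at -0.77 and receptor tyrosine kinases at -0.77. Kinesins stood at 0.24, cohesin and condensin at 0.25, Notch pathway genes at 0.28 and the ciliary transition zone at 0.32.

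Transport across the membrane differed among carriers of the same kind. Of 18 amino acid transporters SLC7A5, the large neutral amino acid exchanger, and SLC38A10 were called lower, against 3.56% of all genes. They had 922 against 1795 counts and 294 against 459 counts. Their ratios were 0.515 (0.475 to 0.557) and 0.642 (0.552 to 0.745). With the trend removed neither was called, SLC7A5 standing at -0.36 on the log2 scale and SLC38A10 above PBS at 0.17. SLC38A1, a glutamine importer, had 5544 counts with A438079 and 4283 with PBS, a ratio of 1.30 (1.246 to 1.35), and SLC7A11, the cystine importer, had 1526 against 1215 counts and a ratio of 1.26 (1.17 to 1.36). Among 9 glucose and lactate carriers, SLC2A3 had 8182 against 6732 counts and a ratio of 1.22 (1.18 to 1.26), and SLC2A1 had 7655 against 8452 counts and a ratio of 0.907 (0.880 to 0.936). SLC2A10 was the lowest at 0.671 times PBS (0.569 to 0.789), and SLC16A3, the lactate exporter, stood at 0.813 times PBS (0.764 to 0.865) with 1806 against 2226 counts. None of the 9 was called.

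P2X7 passes calcium. Among 18 calcium channels, pumps and store sensors 12 lay above PBS, against 56.1% of all genes. Of the 18, 1 was called lower, against 3.56% of all genes. The 3 inositol trisphosphate receptors, which release calcium from the endoplasmic reticulum, did not lie together. ITPR3 had 317 counts with A438079 and 623 with PBS, a ratio of 0.510 (0.444 to 0.585), ITPR2 had 4142 against 3226 counts, a ratio of 1.29 (1.23 to 1.35), and ITPR1 had 377 against 276 counts, a ratio of 1.37 (1.17 to 1.60). With the trend removed ITPR3 was not called, at -0.14 on the log2 scale, and ITPR2 and ITPR1 stood at 0.19 and 0.35. STIM1, the store sensor, had 222 against 324 counts and a ratio of 0.686 (0.576 to 0.817), and ATP2A2, the pump that refills the store, had 3924 against 4648 counts and a ratio of 0.846 (0.810 to 0.883).

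Signalling lists had small medians. Of 11 Notch pathway genes 10 lay above PBS and 8 had an interval above 1, against 56.1% and 31.1% of all genes, at a median log2 ratio of 0.17, or 0.07 with the trend removed. MAML2, a coactivator of Notch, had 311 counts with A438079 and 209 with PBS, a ratio of 1.49 (1.247 to 1.79), and ADAM17, a protease that sheds membrane proteins, had 1235 against 909 counts and a ratio of 1.36 (1.248 to 1.48). Of 21 genes of TGF-beta and BMP signalling 17 lay above PBS, against 56.1% of all genes, with none called. ACVR2A stood highest at 1.26 times PBS (1.08 to 1.48) and FST, an inhibitor of activin, lowest at 0.878 times PBS (0.7997 to 0.963). In the list of insulin receptor, PI3K and mTOR genes, IGF1R and AKT2 were called lower, IGF1R also with the trend removed. AKT2, a kinase of the insulin response, had 468 against 749 counts and a ratio of 0.626 (0.557 to 0.704), or -0.20 on the log2 scale with the trend removed, short of the call. RICTOR, a subunit of mTOR complex 2, had 912 against 689 counts and a ratio of 1.33 (1.1999 to 1.47).

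Among 12 interferon-stimulated genes IFITM3, a restriction factor of membranes, was called lower with 412 against 702 counts and a ratio of 0.588 (0.519 to 0.665), and was also called with the trend removed, at -0.75 on the log2 scale. Of 15 genes of antigen presentation TAPBP, which loads peptides on class I molecules, was called lower with 171 against 297 counts and a ratio of 0.577 (0.475 to 0.699), but not with the trend removed, at -0.55 on the log2 scale. None of 10 immediate early and MAPK feedback genes was called. DUSP6, a phosphatase induced by ERK, had 1899 against 1704 counts and a ratio of 1.12 (1.05 to 1.19).

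Proliferation genes lay on both sides of PBS. Of 30 mitosis and spindle checkpoint genes 14 had an interval above 1 and 7 had one below 1, against 31.1% and 21.2% of all genes. ESPL1, the protease separase that cuts cohesin, was called lower with 290 against 445 counts and a ratio of 0.653 (0.561 to 0.759). With the trend removed ESPL1 stood at -0.06 on the log2 scale and no gene of the list was called. TOP2A, the topoisomerase of dividing cells, had 28168 counts with A438079 and 23293 with PBS, a ratio of 1.21 (1.19 to 1.23). FOXM1 and PLK1, a transcription factor and a kinase of mitosis, had 471 against 704 counts and 1565 against 2236 counts, ratios of 0.670 and 0.701. None of 44 DNA replication genes was called, and their median log2 ratio was 0.00. Replication-dependent histone genes could not be described, as none of 69 reached 10 CPM.

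Iron genes had 8 of 17 members with an interval above 1 and 3 below 1, against 31.1% and 21.2% of all genes. FTL, the ferritin light chain, had 81857 counts with A438079 and 70306 with PBS, a ratio of 1.17 (1.15 to 1.18), while FTH1, the heavy chain, had 12917 against 15485 counts and a ratio of 0.836 (0.816 to 0.856). HMOX1, heme oxygenase, had 736 against 991 counts and a ratio of 0.744 (0.675 to 0.819). Glycosylation enzymes had 3 of 29 members called lower, MAN2A2, MGAT1 and MGAT4B, all of N-glycan trimming and branching in the Golgi, against 3.56% of all genes. None of the 3 was called with the trend removed, at -0.54, -0.33 and -0.33 on the log2 scale. MGAT1 had 468 against 765 counts and a ratio of 0.613 (0.545 to 0.689). Lysosomal hydrolases, V-ATPase genes, coat proteins of vesicles, peroxisome biogenesis and selenoproteins had no called member. CTSD, a lysosomal protease, had 1199 against 1697 counts and a ratio of 0.708 (0.657 to 0.763), and ATP6V1A, a catalytic subunit of the proton pump, had 2858 against 2252 counts and a ratio of 1.27 (1.203 to 1.34). LAMB2, a laminin chain of basement membranes, had 247 against 443 counts and a ratio of 0.559 (0.476 to 0.654), and PFAS, an enzyme of purine synthesis, had 446 against 726 counts and a ratio of 0.615 (0.546 to 0.693), each the 1 member of its list called lower. Neither was called with the trend removed, at -0.14 and -0.22 on the log2 scale. Of 15 genes of the ciliary transition zone, a list from the authors' annotation, 13 lay above PBS and 11 had an interval above 1, against 56.1% and 31.1% of all genes, with none called and a median log2 ratio of 0.24, or 0.15 with the composition trend removed. KIFAP3, which links the kinesin-2 motor to its cargo, had 406 against 303 counts and a ratio of 1.34 (1.15 to 1.56). Many of the list medians lie so near 0 that their sign turns with the scaling.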

How the data were processed

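RNA of HepG2 cells was made into mRNA libraries with a SMARTer kit, per the labels' protocols, 1 library for each of 3 treatments. The authors deposited expected counts per gene, estimates that need not be whole, and FPKM values, scaled for length and depth, in tables of 62680 rows. The submitters' processing notes name GRCm38, a mouse build, although the rows are human genes. The methods of alignment, counting and strand assignment were not given in the sources used here. Overlapping and antisense genes are therefore uncertain. Of the rows, 116 have no Ensembl identifier.

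Expected counts were rounded, and edgeR 4.0.16 under R 4.3.3 gave TMM factors of 0.989 (A438079), 1.002 (PBS) and 1.01 (A740003). Depths of 19375462 to 19735540 counts make 10 CPM 194 to 199 counts. Ratios have exact conditional (Clopper-Pearson) 95% intervals, and log2 ratios a pseudocount of 0.5. PCR copies are not independent molecules, so intervals cover counting error only. GC content and length are those of the longest coding transcript in GENCODE release 29 on GRCh38, for 99.1% of genes, and coordinates come from it. Upstream sequences are from RefSeq. Ratios, intervals and calls were tested on simulated counts with known fold changes. Removal of the composition trend, the gene lists and the upstream search were not part of that simulation.

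The members, gene lists and rules were chosen with earlier results of these data known. Named genes were P2RX7, the 15 highest and 15 lowest protein-coding genes with unshared reads by the interval bound nearest to 1, the 10 highest and 10 lowest with the composition trend (that with GC content and length) removed, the 10 most abundant, and up to 4 members of each list with the largest ratios and the member farthest against it. Further members, and lists from the authors' annotation, were named after values were seen. Some genes are not reported here.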

Additional observations from a re-analysis of the deposited data

How the results depend on the processing

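No paired analysis was possible because each treatment had 1 library. The median log2 ratio of all genes kept within -0.0114 to 0.0802 under every alternative run. Against 21 higher genes, there were 33 with upper quartile scaling, 73 and 48 with the authors' FPKM at pseudocounts of 0.1 and 1, and 8 among the 4155 genes with whole counts. Against 292 lower genes, there were 167 among those 4155 genes and 103 once the composition trend was removed. Genes with whole counts made up 50.7% of all genes, 57.2% of the lower genes and 38.1% of the higher genes. Higher and lower genes numbered 200 and 1158 at a minimum of 1 CPM, 8 and 60 at 30 CPM, and 512 and 1641 with no filter beyond 1 count. They numbered 481 and 745 at a ratio of 5 to 4, 6 and 48 at 2-fold, and 9 and 134 where the interval itself had to pass 1.5-fold. These last changes follow from the filters and thresholds themselves. MYO9A was reversed in the FPKM values, at log2 ratios of -0.0237 and -0.0173 with pseudocounts of 0.1 and 1, and the cause was not tested. Leaving out the 18S rows, an alternative chosen after seeing the data, total counts, DESeq2 1.42.0 size factors, protein-coding genes and counts that were not rounded left both counts within 1.5 times. Scalings moved the median of all genes by at most 0.05. Depth limits genes near 10 CPM, where about 194 counts leave a wide interval, and no alternative stands in for replicate libraries.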

Other observations

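Genes of the circadian oscillator were looked at after CLOCK was seen among the higher genes, so they were chosen with its value known. NPAS2, the paralog of CLOCK that can take its place beside BMAL1, had 219 counts with A438079 and 354 with PBS, a ratio of 0.620 (0.521 to 0.736), and -0.62 on the log2 scale with the composition trend removed. BMAL1, their partner, had 68 against 71 counts, a mean under 10 CPM, and a ratio of 0.960 (0.678 to 1.36). The repressor genes CRY1 and PER3 had 527 against 566 counts and 221 against 209 counts, ratios of 0.933 (0.827 to 1.05) and 1.06 (0.873 to 1.29), and CRY2, also under 10 CPM, had 224 against 145 counts and a ratio of 1.55 (1.2504 to 1.92). NR1D2, a nuclear receptor of the oscillator, had 448 against 359 counts and a ratio of 1.2503 (1.09 to 1.44). In the A740003 library, compared with the same PBS library, CLOCK and NPAS2 stood at 1.51 and 0.471 times PBS.

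Wnt receptors and their cytoplasmic partners were chosen in the same way, after FZD5. FZD6, another receptor of that family, had 669 counts with A438079 and 571 with PBS, a ratio of 1.17 (1.05 to 1.31), and FZD4 had 1340 against 1455 counts and a ratio of 0.923 (0.856 to 0.994). DVL1, DVL2 and DVL3, which relay the signal from these receptors, had 464 against 639 counts, 371 against 500 counts and 403 against 472 counts, ratios of 0.728, 0.743 and 0.855, but DVL1 and DVL3 stood at 0.24 and 0.16 on the log2 scale with the trend removed. CTNNB1, beta-catenin, had 10504 against 8829 counts and a ratio of 1.19 (1.16 to 1.23). OGT, the enzyme that adds the sugar that OGA removes, had 3422 counts with A438079 and 2828 with PBS, a ratio of 1.21 (1.15 to 1.27).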
